A study of Mus musculus with 3 samples.

Results

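The cell cycle genes described here are the 40 rows, of 31053 genes in each deposited matrix, that carry the symbols of a list of cell cycle genes. All 40 had UMIs (unique molecular identifiers, 1 per captured transcript) in every library. They were 23 genes that act in G2 and M phase, 16 that act in S phase, and Stmn1, which encodes stathmin, a tubulin-binding protein that cells outside the cycle also express. Single cells of mouse dorsal skin were sequenced as 3′ transcripts, with 1 library per group, all from C57BL/6 mice 7 weeks old, in a study of how celastrol acts in psoriasis. For the IMQ+celastrol library the skin had received imiquimod and celastrol, a plant triterpenoid. For the IMQ library it had received imiquimod alone, a Toll-like receptor agonist that produces a psoriasis-like dermatitis in mice. The normal library was from control mice given glycerin. How many animals went into a library was not given in the sources used here, so treatment, animal and library cannot be told apart, no test was possible, and every interval below is a 95% interval of counting error alone.

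Dividing cells copy their DNA in S phase, pass a gap called G2 and separate the chromosomes in M phase. The S phase genes here encode the subunits of the replicative helicase (Mcm2 to Mcm7), its loader Cdc6, its cofactor subunit Gins2, the sliding clamp Pcna, the enzymes that make deoxynucleotides (Rrm1, Rrm2, Tyms), the E cyclins (Ccne1, Ccne2), the factor E2f1 that drives S phase genes, and Uhrf1, which keeps DNA methylation through replication. The G2 and M phase genes encode the mitotic kinases and cyclins (Cdk1, Ccnb1, Ccnb2, Ccna2, Plk1, Aurka, Aurkb), spindle motors and spindle-binding proteins (Kif11, Kif23, Tpx2, Nusap1, Prc1, Hmmr), centromere and checkpoint proteins (Cenpa, Cenpe, Cenpf, Bub1, Bub1b, Birc5), the degradation machinery that ends mitosis (Cdc20, Ube2c), and Top2a and Mki67, which act on chromosome structure. In healthy skin, division is found mainly in the basal epidermis and in the matrix at the base of growing hair follicles, and thickened, fast-dividing epidermis is a hallmark of psoriasis.

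Promoters of 4 of the genes are printed first, to show the different short elements that the S phase genes and the G2 and M phase genes carry. The 2 groups also had different ratios between libraries in several cell types, and whether the elements bear on the ratios was not tested. Promoters of 33 of the 40 genes were found in a RefSeq table of build GRCm38.p6, which gives 250 bases before and 50 after each start. The element TTTGAA, known as the cell cycle genes homology region, was in 15 of 20 promoters of G2 and M phase genes (75%) and in 1 of 13 promoters of S phase genes (7.69%), against 18.1% of 27025 mouse promoters of the same length. The CCAAT box was in 90% and 69.2% of them, against 37.9%, and every one of the 15 with TTTGAA also held CCAAT. An E2F site, written here as TTTGGCGC, TTTCCCGC or TTTCGCGC, was in 5 of 13 promoters of S phase genes (38.5%) and 1 of 20 of G2 and M phase genes (5%), against 1.91%. Both strands were searched, and a match is a description of letters, not a shown binding site. The sequences run 5′ to 3′ on the gene's strand. Capitals mark TTTGAA and CCAAT in Ube2c and Top2a and the E2F sites in Mcm6 and Mcm7, on either strand, so that TTCAAA and ATTGG are the elements read from the opposite strand. The window of Ube2c lies at chr2:164769679-164769978 on the plus strand, that of Top2a at chr11:99024140-99024439, that of Mcm6 at chr1:128359656-128359955 and that of Mcm7 at chr5:138171834-138172133, all 3 on the minus strand.
Ube2c: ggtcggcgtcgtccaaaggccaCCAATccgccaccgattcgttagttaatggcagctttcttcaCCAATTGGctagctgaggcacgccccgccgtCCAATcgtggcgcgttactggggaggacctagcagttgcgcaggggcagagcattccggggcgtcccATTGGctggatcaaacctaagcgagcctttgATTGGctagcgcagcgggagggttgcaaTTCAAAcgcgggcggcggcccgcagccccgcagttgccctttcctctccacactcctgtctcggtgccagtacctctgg
Top2a: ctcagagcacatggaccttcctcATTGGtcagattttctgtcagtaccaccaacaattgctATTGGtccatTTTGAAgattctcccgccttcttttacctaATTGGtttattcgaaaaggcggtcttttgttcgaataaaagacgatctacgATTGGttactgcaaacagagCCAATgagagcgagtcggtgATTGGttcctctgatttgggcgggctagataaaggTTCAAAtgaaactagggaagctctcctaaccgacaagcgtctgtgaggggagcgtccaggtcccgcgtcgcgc
Mcm6: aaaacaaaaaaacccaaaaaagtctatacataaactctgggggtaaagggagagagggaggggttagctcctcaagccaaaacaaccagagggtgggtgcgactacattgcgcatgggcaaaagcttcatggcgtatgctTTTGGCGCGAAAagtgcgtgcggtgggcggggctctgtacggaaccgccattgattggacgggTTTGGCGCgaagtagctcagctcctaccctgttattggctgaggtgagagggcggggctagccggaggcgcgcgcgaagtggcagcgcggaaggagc
Mcm7: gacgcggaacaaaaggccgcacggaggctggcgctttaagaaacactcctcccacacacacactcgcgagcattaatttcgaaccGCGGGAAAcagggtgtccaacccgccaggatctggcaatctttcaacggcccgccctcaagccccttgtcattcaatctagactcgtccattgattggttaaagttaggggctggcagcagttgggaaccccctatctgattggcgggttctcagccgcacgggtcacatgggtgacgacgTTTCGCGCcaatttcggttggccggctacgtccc
Both printed G2 and M phase promoters had a TTTGAA close to the start, beginning 29 bases before it in Ube2c and 23 bases before it in Top2a, with CCAAT boxes further from it. Top2a held another TTTGAA, beginning 179 bases before the start, with CCAAT boxes on both sides. The layout was not general: in Cenpa, which holds both elements and is not printed, TTTGAA lay after the start, from position 17. A TTTGAA also lay after the start in Cenpf, Bub1b, Aurka, Plk1, Kif23, Ccnb2 and Hmmr, so Cenpa was not a lone exception. In Ube2c, a CCAAT on either strand overlapped as CCAATTGG. In Mcm6, E2F sites of either strand overlapped, the first beginning 110 bases before the start. The other G2 and M phase genes of a longer list, which the 40 do not include, held TTTGAA in 29 of 46 promoters (63%), and the other S phase genes held an E2F site in 12 of 34 (35.3%).

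Depth differed between the libraries, so cells were compared at a fixed depth. The libraries held 103267738 UMIs over 6777 barcodes in IMQ+celastrol, 119831835 over 8236 in IMQ and 77880943 over 10565 in normal. After filters, 6092 IMQ+celastrol, 7495 IMQ and 9558 normal cells were kept. Each pair of libraries shared between 12 and 24 barcodes among kept cells. Each cell was thinned at random to 2000 UMIs, which left out 7.19% of IMQ+celastrol, 8.61% of IMQ and 11% of normal cells as too shallow. A thinned cell counted as cycling with at least 3 UMIs from at least 2 G2 and M phase genes, or at least 5 UMIs from at least 3 S phase genes. Cell types were named from marker genes and are written "-like", and the cell cycle genes were left out of the clustering. Neutrophil-like cells, which are past division, served as the background: none of 55 IMQ+celastrol cells and none of 128 IMQ cells counted as cycling, which allows shares of up to 5.45% and 2.34%. Their median depth was 2679 UMIs in IMQ+celastrol and 4472.5 in IMQ, and the normal library held 7, all too shallow. Without thinning 1.45% of them passed the minimums in IMQ+celastrol and 1.43% in IMQ, at those depths. Deeper cells pass the same minimums more easily, so the unthinned shares given below for deeper classes have no background of their own.

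Over all kept cells, 8.68% were cycling in IMQ+celastrol (7.96 to 9.45), 7.23% in IMQ (6.62 to 7.87) and 15.5% in normal (14.7 to 16.2). Of the cycling cells of the normal library, 54.4% were in 1 cell class that the other libraries nearly lacked. Hair matrix-like cells, a cluster led by the inner root sheath keratins Krt25, Krt27 and Krt28 and by the hair matrix factors Msx2, Dlx3 and Dlx2, held 716 cycling cells of 1082 in the normal library, or 66.2% (63.3 to 69), and only 1 cell in each of the other libraries. These cells had 290 counts per 1000000 UMIs of the class (CPM) of Ube2c, 209 of Top2a, 198 of Mki67 and 2490 of Stmn1, and 22.2% of the cycling ones (19.2 to 25.4) were cycling by the S phase genes alone. Without thinning their share was 86.7%, at a median of 12300 UMIs.

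**Figure D1:**
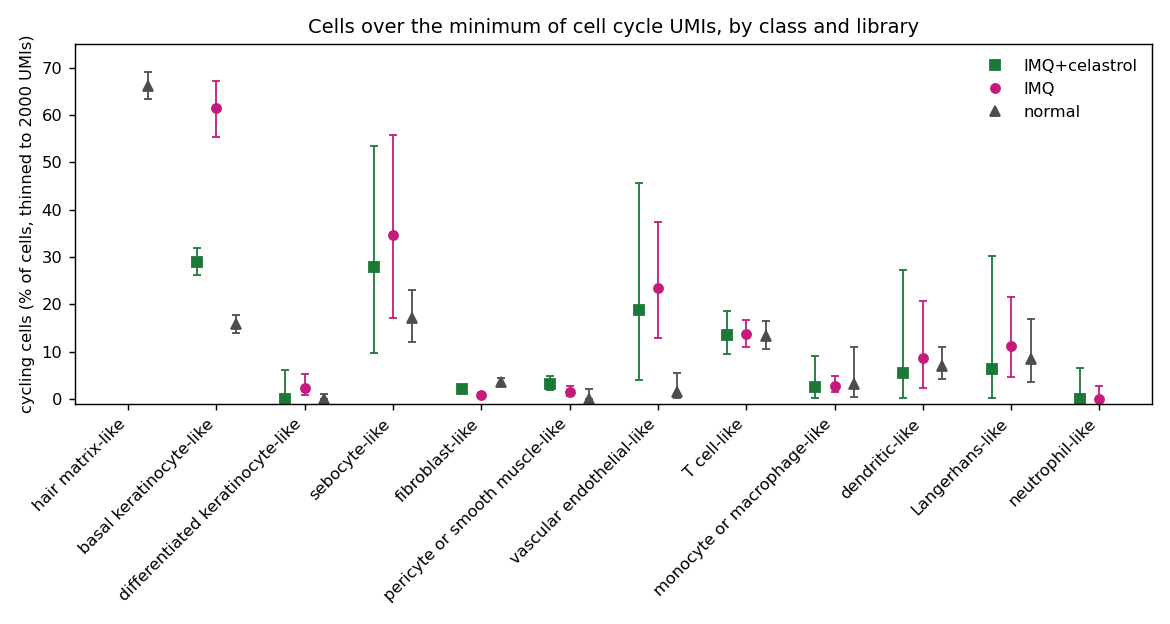
Share of cells over the minimum of cell cycle UMIs, as a percent of cells thinned to 2000 UMIs, in each named class for IMQ+celastrol (squares), IMQ (circles) and normal (triangles), with exact 95% binomial intervals and only where a library held at least 16 thinned cells. The basal keratinocyte-like share was 29% in IMQ+celastrol, 61.5% in IMQ and 15.8% in normal, the T cell-like shares lay between 13.3% and 13.7%, and neutrophil-like cells were at 0.

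In the epithelial compartment as a whole, 20.3% of cells were cycling in IMQ+celastrol (388 of 1912, 18.5 to 22.2), 26.3% in IMQ (345 of 1311, 23.9 to 28.8) and 26.5% in normal (1114 of 4207, 25.2 to 27.8). Without the hair matrix-like cells the normal share was 12.7% (398 of 3125, 11.6 to 14), so that IMQ was 2.07-fold higher than normal (1.78 to 2.39) in place of 0.994-fold. The IMQ+celastrol share was 0.771 times the IMQ share (0.665 to 0.894) over the whole compartment. Without thinning the shares were 66.4% in IMQ+celastrol, 69.7% in IMQ and 40.2% in normal, with median depths of 26744, 37223 and 8909.5 UMIs.

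Basal keratinocyte-like cells, which carry Krt5, Krt14 and the hemidesmosome genes and renew the epidermis, differed widely between the libraries. In IMQ+celastrol 306 of 1054 were cycling (29%, 26.3 to 31.9), in IMQ 169 of 275 (61.5%, 55.4 to 67.2) and in normal 217 of 1376 (15.8%, 13.9 to 17.8). The IMQ share was 3.9-fold the normal share (3.17 to 4.79), and the IMQ+celastrol share was 0.472 times the IMQ share (0.39 to 0.573) and 1.84-fold the normal share (1.54 to 2.2). Exactly at the G2 and M phase minimum lay 35 IMQ+celastrol, 21 IMQ and 10 normal cells, and 66, 25 and 17 lay 1 UMI below it. Too shallow to be thinned were 8 IMQ+celastrol, 3 IMQ and 31 normal cells. Without thinning the shares were 75.4% in IMQ+celastrol, 96% in IMQ and 27.4% in normal, at median depths of 25323, 45704 and 8363 UMIs. Summed CPM of 10 neutrophil markers, which include the keratinocyte-expressed S100a8 and S100a9, was 1596 in IMQ+celastrol, 13439 in IMQ and 163 in normal cells of this class, with Ly6g at 0 in each, and their part in the result was not tested.

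Different clusters made up this class in the 3 libraries. The normal cells were mostly in cluster 3, led by Fcgbp and Krt15, where 179 of 1141 were cycling (15.7%). Cluster 8, led by Gnmt and Lhx2, is not in the class. Its marker score was 0.86 for basal keratinocytes and 0.66 for outer root sheath or bulge keratinocytes. It stayed unnamed because another list had more markers among its leading genes. It held 145 cycling cells of the normal library, or 11% of them. The IMQ cells were nearly all in cluster 7, led by Vsnl1, Lmo1 and Nrg1. The IMQ+celastrol cells were mostly in cluster 13, led by Col17a1, Wnt4 and Itga6, where 165 of 666 were cycling (24.8%, 21.5 to 28.2), against 11 of 17 IMQ cells and 8 of 46 normal cells (17.4%, 7.82 to 31.4). Cluster 7 held enough cells of every library for a comparison within it: 37.2% were cycling in IMQ+celastrol (140 of 376, 32.3 to 42.3), 61.2% in IMQ (158 of 258, 55 to 67.2) and 15.9% in normal (30 of 189, 11 to 21.9). The order of the libraries in cluster 7 was thus that of the class, and the 3 intervals did not overlap. The cells of cluster 7 were not alike between libraries, though. Summed basal keratinocyte markers in its cells that were not cycling were 24170 CPM in IMQ+celastrol, 23488 in IMQ and 16317 in normal. The part of this difference in the shares was not tested. Without thinning the shares in cluster 7 were 80.7% in IMQ+celastrol, 95.8% in IMQ and 45% in normal, at median depths of 27719, 45799 and 7577 UMIs.

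**Figure D2:**
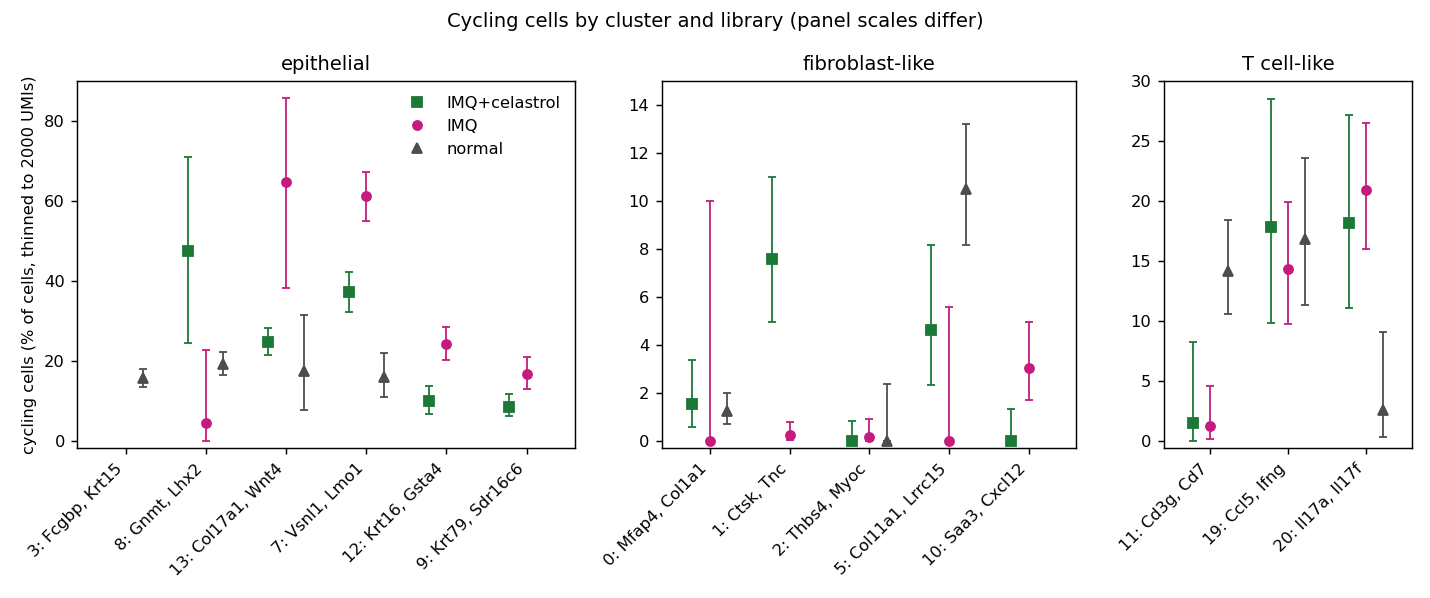
Cycling cells as a percent of thinned cells in single clusters, labelled with their number and 2 leading genes, in epithelial, fibroblast-like and T cell-like cells, for IMQ+celastrol (squares), IMQ (circles) and normal (triangles), with exact 95% intervals. Panel scales differ, and points with fewer than 16 cells are left out. In cluster 1 the IMQ+celastrol share was 7.58% against 0.275% in IMQ, and in cluster 11 the normal share of 14.2% stood above 1.54% in IMQ+celastrol and 1.29% in IMQ.

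Levels of the single genes were read in the same basal keratinocyte-like cells. All 40 had at least 20 UMIs over each pair of libraries. Between IMQ and normal, 34 of 40 were at least 1.5-fold higher in IMQ and none was 1.5-fold lower, where 27.5% of all genes compared were that much higher and 19.3% lower. Their median log2 ratio was 1.17, or 1.03 above the median of all genes, which stood at 0.13. These were 21 of the 23 G2 and M phase genes, with a median log2 ratio of 1.13, and 13 of the 16 S phase genes, with a median of 1.44.

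The genes themselves had these levels in basal keratinocyte-like cells. Ube2c, which hands ubiquitin to the complex that ends mitosis, had 210 CPM in IMQ+celastrol, 330 in IMQ and 196 in normal. Mki67, a coat protein of mitotic chromosomes and the usual mark of division in skin sections, lies at chr7:135689784-135716361 on the minus strand of GRCm38 and had 106 CPM in IMQ+celastrol, 155 in IMQ and 65.4 in normal. Top2a, which untangles replicated DNA, had 160 CPM in IMQ+celastrol, 205 in IMQ and 105 in normal. All 3 were highest in IMQ, with IMQ+celastrol between the other libraries. The ratio of IMQ to normal was 1.68 for Ube2c (1.6 to 1.77), 2.36 for Mki67 (2.18 to 2.56) and 1.94 for Top2a (1.82 to 2.07). Birc5, a passenger protein of the mitotic centromere, had 129 CPM in IMQ+celastrol, 257 in IMQ and 117 in normal. Cdc20, which activates that same mitotic ubiquitin ligase, had 103 CPM in IMQ+celastrol, 175 in IMQ and 74.9 in normal. Cenpa, the histone variant that marks the centromere, had 112 CPM in IMQ+celastrol, 209 in IMQ and 121 in normal. For Cenpa the IMQ+celastrol level was 0.922 times the normal level, so it lay below both other libraries.

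Among S phase genes, Rrm2, the regulated subunit of ribonucleotide reductase, had the highest ratio of IMQ to normal of the 40: 64.5 CPM in IMQ+celastrol, 140 in IMQ and 29.1 in normal, a ratio of 4.81 (4.3 to 5.38). Its partner subunit Rrm1 had 81.1 CPM in IMQ+celastrol, 124 in IMQ and 39.3 in normal. The clamp gene Pcna had 90 CPM in IMQ+celastrol, 111 in IMQ and 60.7 in normal. The helicase gene Mcm3 had 56.3 CPM in IMQ+celastrol, 74.8 in IMQ and 19.4 in normal, and its ratio of 2.91 between IMQ+celastrol and normal (2.54 to 3.33) was the highest of the 40. Stmn1 went the other way from the rest: 444 CPM in IMQ+celastrol, 496 in IMQ and 612 in normal, the lowest ratio of IMQ to normal at 0.811 (0.785 to 0.838).

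**Figure D3:**
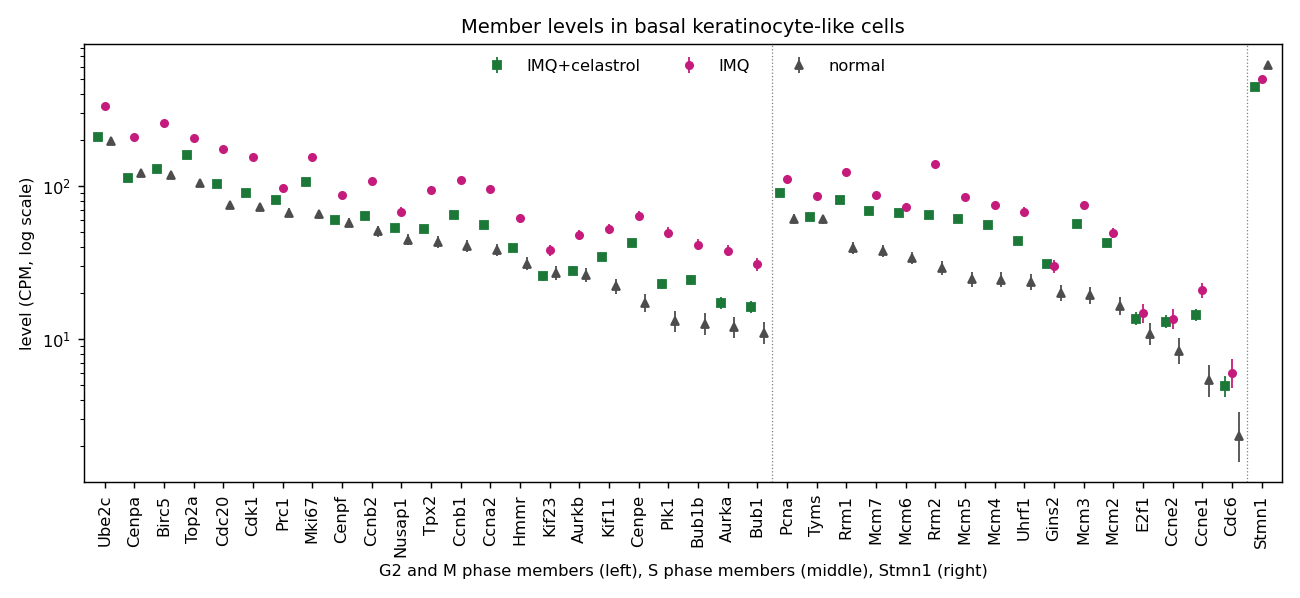
Level of each of the 40 genes in basal keratinocyte-like cells, in counts per 1000000 UMIs of the class on a log axis, for IMQ+celastrol (squares), IMQ (circles) and normal (triangles), with exact 95% Poisson intervals. G2 and M phase genes stand left, S phase genes in the middle and Stmn1 at the right, and Rrm2 ran 64.5, 140 and 29.1 CPM in the order of the libraries above.

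Between IMQ+celastrol and IMQ in the same class, 20 of 40 genes were at least 1.5-fold lower in IMQ+celastrol and none was 1.5-fold higher, where 13.5% of all genes were that much lower and 11.1% higher. The median log2 ratio was −0.58, against −0.10 over all genes. The genes lower in IMQ+celastrol were 17 of the 23 G2 and M phase genes, at a median of −0.76, and 3 of the 16 S phase genes, at a median of −0.37. Aurka, the kinase that matures spindle poles, had the lowest ratio, with 17.2 CPM in IMQ+celastrol and 37.7 in IMQ (0.456, 0.404 to 0.516). Gins2, part of the replicative helicase, had the highest, with 30.8 CPM in IMQ+celastrol and 29.9 in IMQ (1.03, 0.917 to 1.16). Set against normal, IMQ+celastrol was at least 1.5-fold higher for 13 of the 16 S phase genes and 7 of the 23 G2 and M phase genes, where 17% of all genes were that much higher, and none of the 40 was 1.5-fold lower, where 14.8% of all genes were. The comparisons share libraries, so their counts are not independent of each other. The counts also moved with the settings: with every cluster named by its highest marker score the 34 became 12 and the 20 became 3, and with doublets kept they became 15 and 9.

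The balance is the summed UMIs of the 23 G2 and M phase genes over those of the 16 S phase genes. As a ratio within 1 library it does not move with depth. The sums take in all cells of a class, so it can also move with the share of cycling cells, and how far was not tested. In IMQ cells of cluster 1, which are fibroblast-like, 3 of 1091 thinned cells were cycling, while Pcna had 457 UMIs against 25 for Top2a. In basal keratinocyte-like cells the balance was 2.06 in IMQ+celastrol (2.03 to 2.1), 2.43 in IMQ (2.38 to 2.48) and 3.04 in normal (2.95 to 3.14), and the intervals did not overlap. Of the cycling cells, 13.1% were so by S phase genes alone in IMQ+celastrol (9.51 to 17.4), 8.28% in IMQ (4.6 to 13.5) and 5.07% in normal (2.56 to 8.89). With the cell cycle genes left in the clustering, the log2 ratio of IMQ to normal in this balance was 0.06 in place of −0.32. The hair matrix-like cells of the normal library had a balance of 1.64.

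Within cluster 7 the level of the genes separated IMQ+celastrol from IMQ much less than in the class. Of the 40 genes, 2 were at least 1.5-fold lower in IMQ+celastrol than in IMQ and none was higher, where 6.31% of all genes were that much lower and 10.1% higher, and the median log2 ratio was −0.25. Top2a had 196 CPM in IMQ+celastrol, 205 in IMQ and 96.3 in normal. Ube2c had 255 CPM in IMQ+celastrol, 325 in IMQ and 103 in normal. Both treated libraries thus stood above normal within the cluster. Between IMQ and normal in cluster 7, 31 genes were at least 1.5-fold higher, where 27.1% of all genes were, and they included all 23 G2 and M phase genes (median log2 ratio 1.66, or 1.54 relative to the median of all genes). Of the 16 S phase genes 8 were among them, and Gins2, E2f1 and Stmn1 were at least 1.5-fold lower, where 19.3% of all genes were. The ratio of G2 and M phase to S phase UMIs was 2.11 in IMQ+celastrol, 2.34 in IMQ and 1.26 in normal, so the order of the libraries in this cluster was not that of the class.

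Other epithelial clusters of the treated libraries gave smaller shares. Cluster 12, which stayed unnamed and was led by Krt16, Gsta4 and Krt6b, of which Krt16 and Krt6b are keratins of thickened epidermis, was cycling at 9.94% in IMQ+celastrol (31 of 312, 6.85 to 13.8) and 24.2% in IMQ (103 of 426, 20.2 to 28.5), with only 2 normal cells. Without thinning the shares were 57.7% in IMQ+celastrol and 73.8% in IMQ, at median depths of 35471 and 41739 UMIs, so that the log2 ratio was −0.35 in place of −1.28. There 36 of the 40 genes were at least 1.5-fold lower in IMQ+celastrol, where 15.8% of all genes were, and none was higher, where 9.95% were, with a median log2 ratio of −0.96. Uhrf1 had 6.1 CPM in IMQ+celastrol and 21.6 in IMQ, the lowest ratio (0.282, 0.216 to 0.363), and Ube2c had 60 CPM in IMQ+celastrol and 131 in IMQ. Cycling cells of cluster 12 carried less of the summed differentiated keratinocyte markers than the other cells of it, 33632 against 71276 CPM in IMQ+celastrol and 19418 against 37475 CPM in IMQ. In cluster 9, also unnamed and led by Krt79 and Sdr16c6, 8.64% of cells were cycling in IMQ+celastrol (37 of 428) and 16.7% in IMQ (58 of 347), and without thinning 58.6% and 69.4%, a log2 ratio of −0.24 in place of −0.95. Differentiated keratinocyte-like cells had no cycling cell of 58 in IMQ+celastrol, 5 of 215 in IMQ (2.33%) and none of 378 in normal. The libraries sat in different clusters here, the treated ones mostly in cluster 26, led by the cornified envelope gene Cnfn and Sprr2 genes, and normal in cluster 22, led by Krt77 and Mt4.

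Over the whole epithelial compartment, which weighs in how many cells of each cluster a library held, the levels of IMQ+celastrol and IMQ were close. None of the 40 genes differed 1.5-fold in either direction, where 11.5% of all genes were higher and 8.29% lower in IMQ+celastrol, and the median log2 ratio was −0.03. Ube2c had 145 CPM in IMQ+celastrol, 160 in IMQ and 177 in normal. Rrm2 had 50.4 CPM in IMQ+celastrol, 72.9 in IMQ and 81.9 in normal. The normal values take in the hair matrix-like cells, which had 290 CPM of Ube2c and 185 of Rrm2 and which the other libraries nearly lacked. Levels of the compartment without them are not given here. Basal keratinocyte-like cells held 62.3% of all cycling cells of the IMQ+celastrol library, 34.1% of those of the IMQ library and 16.5% of those of the normal library.

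Other genes of the pathway, 128 on 4 lists that hold none of the 40, were read in the same class. Of 43 other S phase genes, 38 were at least 1.5-fold higher in IMQ basal keratinocyte-like cells than in normal ones, and of 61 other G2 and M phase genes 50 were higher and 1 lower, where 27.5% of all genes were higher and 19.3% lower. When clusters took the name of their best marker list the 38 became 8 and the 50 became 5, and with doublets kept they became 10 and 6. The origin-binding gene Orc1 had 7.46 CPM in IMQ+celastrol, 8.24 in IMQ and 1.32 in normal, the highest ratio of IMQ to normal (6.23, 3.73 to 11.1). Mybl2, a transcription factor of the G2 and M phase programme, had 11.1 CPM in IMQ+celastrol, 26.2 in IMQ and 4.67 in normal. The D cyclins, which carry cells through G1, differed among themselves: Ccnd1 had 115 CPM in IMQ+celastrol, 98.8 in IMQ and 64.8 in normal, while Ccnd2 had 125, 62.4 and 157. Ccnd3 had 50.1 CPM in IMQ+celastrol, 46.3 in IMQ and 29.5 in normal. The inhibitors were mixed, with 3 higher and 5 lower of 16 compared between IMQ and normal, against the same shares of all genes. The inhibitors given values next are all among the 5 lower ones, and levels of the 3 higher ones are not given here. Trp53inp1, a stress gene of the p53 pathway, was 7.03-fold lower in IMQ than in normal, with 18 CPM in IMQ+celastrol, 12.4 in IMQ and 87.4 in normal. Btg1, an antiproliferative gene, had 359 CPM in IMQ+celastrol, 159 in IMQ and 568 in normal. Cdkn1a, the p21 inhibitor, had 225 CPM in IMQ+celastrol, 153 in IMQ and 282 in normal. Between IMQ+celastrol and IMQ, 4 of 16 inhibitors were at least 1.5-fold higher in IMQ+celastrol and none was lower, while 37 of the other G2 and M phase genes and 13 of the other S phase genes were lower and 1 S phase gene, E2f2, was higher, where 11.1% of all genes were higher and 13.5% lower. Named by highest score the 37 became 3 and the 13 became 1, and with doublets kept they became 16 and 8.

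Fibroblast-like cells, which build the dermal matrix and divide little in adult skin, stood in another order. In IMQ+celastrol 46 of 2126 were cycling (2.16%, 1.59 to 2.88), in IMQ 23 of 2908 (0.791%, 0.502 to 1.18) and in normal 82 of 2289 (3.58%, 2.86 to 4.43). The IMQ share was 0.221 times the normal share (0.133 to 0.354), and the IMQ+celastrol share was 2.74-fold the IMQ share (1.62 to 4.73). Exactly at the G2 and M phase minimum lay 1 IMQ+celastrol, 2 IMQ and 7 normal cells. Without thinning the shares were 7.17% in IMQ+celastrol, 5.06% in IMQ and 6.17% in normal, at median depths of 9029, 9206 and 4250 UMIs, and 64, 116 and 432 cells were too shallow to be thinned.

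Fibroblast-like cells also fell in different clusters: mostly clusters 0 and 5 in normal, clusters 1, 2 and 10 in IMQ, and clusters 2, 0 and 1 in IMQ+celastrol. Cluster 5, led by Col11a1 and Lrrc15, held most of the normal cycling cells: 11 of 237 in IMQ+celastrol (4.64%, 2.34 to 8.15), none of 64 in IMQ, which allows up to 4.69%, and 64 of 612 in normal (10.5%, 8.15 to 13.2). Cluster 1, led by Ctsk, Tnc and the matrix protease Mmp3, held most of the IMQ+celastrol ones: 25 of 330 (7.58%, 4.96 to 11), against 3 of 1091 in IMQ (0.275%, 0.0567 to 0.801) and none of 15 in normal. Without thinning, cluster 1 was at 15.6% in IMQ+celastrol and 4.29% in IMQ. Cluster 10, led by Saa3 and Cxcl12, held most of the IMQ ones: none of 272 in IMQ+celastrol, 15 of 492 in IMQ (3.05%, 1.72 to 4.98) and none of 13 in normal. The largest part of the cycling fibroblast-like cells thus lay in another cluster in each library, and 11 IMQ+celastrol ones were in cluster 5 and 6 in cluster 0. Without cluster 5 the class shares were 1.85% in IMQ+celastrol, 0.809% in IMQ and 1.07% in normal. Without cluster 1 they were 1.17%, 1.1% and 3.61%, and without both 0.641%, 1.14% and 1.08%, where the IMQ+celastrol share was below the IMQ share.

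The G2 and M phase genes were lower in IMQ fibroblast-like cells than in normal ones, over a class whose normal cycling cells lay mostly in cluster 5. Without cluster 5 the cycling shares were 0.809% in IMQ and 1.07% in normal. The levels below include cluster 5, and levels without it are not given here. Mki67 had 10.3 CPM in IMQ+celastrol, 5.93 in IMQ and 15.3 in normal, with a ratio of IMQ to normal of 0.388 (0.317 to 0.476). Birc5 had 15 CPM in IMQ+celastrol, 10.1 in IMQ and 35.1 in normal. Cenpa had 9.6 CPM in IMQ+celastrol, 9.88 in IMQ and 30.3 in normal. Mki67 and Birc5 had intermediate levels in IMQ+celastrol, and Cenpa was level with IMQ there. Stmn1 had the lowest ratio of IMQ to normal, with 52.8 CPM in IMQ+celastrol, 24 in IMQ and 147 in normal (0.163, 0.15 to 0.178), and Pcna had the highest, with 42, 35.4 and 35.7 CPM (0.993, 0.891 to 1.11). Over the 40 genes, 30 were at least 1.5-fold lower in IMQ and none was higher, where 17.6% of all genes were lower and 15.5% higher: 21 of 23 G2 and M phase genes, 8 of 16 S phase genes and Stmn1. The median log2 ratio was −1.15 for G2 and M phase genes and −0.62 for S phase genes.

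Between IMQ+celastrol and IMQ, more of the S phase genes than of the G2 and M phase genes were higher, but this moved with the doublets. In IMQ+celastrol fibroblast-like cells 18 of 40 genes were at least 1.5-fold higher and none was lower, where 13.9% of all genes were higher and 6.97% lower: 11 of 16 S phase genes, 6 of 23 G2 and M phase genes and Stmn1. With doublets kept the count of G2 and M phase genes was 16 and that of S phase genes 11. The median log2 ratio was 0.76 for S phase genes and 0.33 for G2 and M phase genes, against 0.15 over all genes, which leaves 0.62 and 0.18 relative to it. Uhrf1 had the highest ratio, with 9.17 CPM in IMQ+celastrol, 2.2 in IMQ and 8.81 in normal (4.17 for IMQ+celastrol over IMQ, 3.16 to 5.57). Mcm5 had 9.97 CPM in IMQ+celastrol, 3.63 in IMQ and 9.48 in normal. Ube2c had 15.4 CPM in IMQ+celastrol, 16.8 in IMQ and 31.8 in normal, a ratio of 0.917 to IMQ (0.797 to 1.05). Uhrf1 and Mcm5 were thus close to their normal levels in IMQ+celastrol, while Ube2c was near its IMQ level. Set against normal, 17 genes were at least 1.5-fold lower in IMQ+celastrol, and none higher, where 10.8% of all genes were lower and 17.2% higher, and 14 of them were G2 and M phase genes and 2 S phase genes. All genes stood 0.13 higher there at the median, and relative to that the G2 and M phase genes were at −0.84 and the S phase genes at −0.07. The ratio of G2 and M phase to S phase UMIs was 0.661 in IMQ+celastrol (0.633 to 0.691), 0.806 in IMQ (0.773 to 0.84) and 1.29 in normal (1.23 to 1.35). The log2 ratio of IMQ+celastrol to IMQ in this balance was −0.29, and its sign turned with doublets kept (0.15) and with Scrublet's own calls (0.09). Of the cycling fibroblast-like cells, 34.8% were so by S phase genes alone in IMQ+celastrol (21.4 to 50.2), 4.35% in IMQ (0.11 to 21.9) and 18.3% in normal (10.6 to 28.4).

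Within cluster 1, genes of both phases differed widely between IMQ+celastrol and IMQ. Top2a had 42.5 CPM in IMQ+celastrol and 2.62 in IMQ (16.2-fold, 10.6 to 25.9), and Ube2c had 56.3 and 2.3 CPM (24.4-fold, 15.7 to 39.9). S phase genes were higher too, with 22.2 CPM of Mcm5 in IMQ+celastrol and 3.56 in IMQ (6.24-fold, 4.13 to 9.6), and 20.9 and 5.34 CPM of Rrm2 (3.9-fold, 2.71 to 5.68), and Pcna, with 64.2 and 47.9 CPM (1.34-fold, 1.14 to 1.57), was the one compared S phase gene under 1.5-fold. In cluster 5, 34 of the 40 genes were at least 1.5-fold lower in IMQ than in normal, and none higher, where 20.7% of all genes were lower and 28.7% higher, all 23 G2 and M phase genes among them. The median of the 40 log2 ratios was −2.83, against 0.13 over all genes. The IMQ library held 69 cells there before thinning, so its levels rest on few cells. Against normal, IMQ+celastrol cells of cluster 5 had 8 genes at least 1.5-fold higher, where 21.4% of all genes were, all 8 of them S phase genes, and 13 lower, where 11.8% of all genes were, 12 of them G2 and M phase genes. Mcm2 there had 34.5 CPM in IMQ+celastrol, 4.35 in IMQ and 12.7 in normal, while Ube2c had 17.2, 4.35 and 62.1 CPM. Keratinocyte transcripts differed too: summed basal keratinocyte markers in fibroblast-like cells were 584 CPM in IMQ+celastrol, 229 in IMQ and 231 in normal, and 567 against 213 CPM in cluster 1, and their part in the result was not tested.

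**Figure D4:**
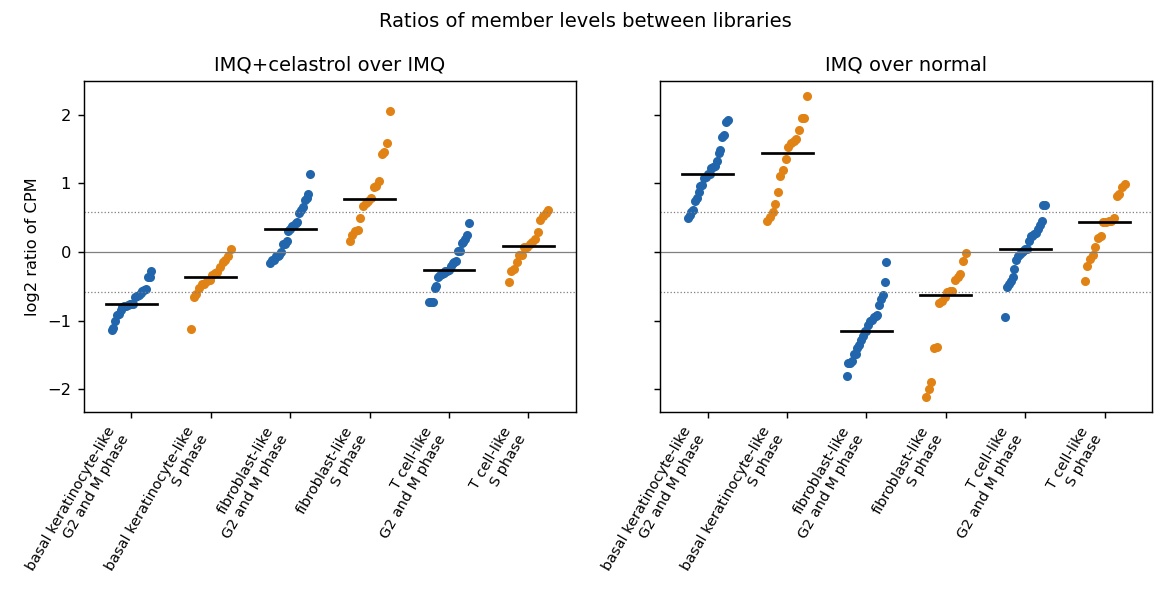
Log2 ratio of counts per 1000000 UMIs for each of the 40 genes (Stmn1 left out of both colours) in basal keratinocyte-like, fibroblast-like and T cell-like cells, with IMQ+celastrol over IMQ on the left and IMQ over normal on the right, G2 and M phase genes in blue, S phase genes in orange, a black bar at each median and dotted lines at 1.5-fold. The medians of G2 and M phase genes were −0.76 (basal) and 0.33 (fibroblast) on the left, and 1.13 and −1.15 on the right.

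Of the G1 cyclins, Ccnd1 in fibroblast-like cells had 43 CPM in IMQ+celastrol, 13.1 in IMQ and 74.7 in normal, a ratio of IMQ+celastrol to IMQ of 3.29 (2.92 to 3.7). Ccnd2 had 90.8 CPM in IMQ+celastrol, 49.3 in IMQ and 54.5 in normal, and Ccnd3 had 80.5, 58.4 and 57.2. Among other S phase genes, 20 of 43 were at least 1.5-fold higher in IMQ+celastrol than in IMQ and 1 was lower, where 13.9% of all genes were higher and 6.97% lower. Hells, a chromatin remodeller of replicating cells, had 10.3 CPM in IMQ+celastrol, 3.38 in IMQ and 9.85 in normal. Of 61 other G2 and M phase genes 23 were higher and 1 lower. Of the 17 inhibitors on the list, 4 were at least 1.5-fold lower in IMQ than in normal, where 17.6% of all genes were. Between IMQ+celastrol and IMQ, 2 were lower in IMQ+celastrol, where 6.97% of all genes were. Trp53inp1 and Btg1, taken as examples, were highest in IMQ. Trp53inp1 had 15.9 CPM in IMQ+celastrol, 33.2 in IMQ and 21.8 in normal, and Btg1 had 268, 389 and 250. Cdkn2a, which encodes p16 and Arf, had 1.83 CPM in IMQ+celastrol, 2.77 in IMQ and 5.55 in normal.

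T cell-like cells were cycling at nearly the same share in all libraries: 13.5% in IMQ+celastrol (32 of 237, 9.42 to 18.5), 13.7% in IMQ (83 of 607, 11 to 16.7) and 13.3% in normal (75 of 564, 10.6 to 16.4). Too shallow to be thinned were 108 IMQ+celastrol, 151 IMQ and 115 normal cells, and the unthinned shares were 14.5%, 17.9% and 14.3%. At 4000 UMIs, which fewer cells reach, the log2 ratio of the IMQ to the normal share was −1.14 in place of 0.04. Ube2c had 156 CPM in IMQ+celastrol, 196 in IMQ and 233 in normal, and Top2a had 157, 143 and 143. Over the 40 genes, 6 were at least 1.5-fold higher and 2 lower in IMQ than in normal, where 18.2% and 15% of all genes were. Mcm3 had 59.6 CPM in IMQ+celastrol, 70.6 in IMQ and 36.7 in normal, and Uhrf1 had the highest ratio of IMQ to normal at 1.98 (1.38 to 2.91). Cenpa had the lowest, with 88.2 CPM in IMQ+celastrol, 125 in IMQ and 240 in normal. The ratio of G2 and M phase to S phase UMIs was 1.56 in IMQ+celastrol (1.44 to 1.7), 1.84 in IMQ (1.76 to 1.94) and 2.5 in normal (2.34 to 2.67), the order seen in basal keratinocyte-like cells, though with doublets kept the log2 ratio of IMQ+celastrol to IMQ was 0.01 in place of −0.24. Summed T cell markers were 8316 CPM in IMQ+celastrol, 8167 in IMQ and 17337 in normal, and summed basal keratinocyte markers 681, 271 and 195 CPM, and their part in these values was not tested. Between IMQ+celastrol and IMQ 1 gene was 1.5-fold higher and 3 were lower, where 9.59% and 10.1% of all genes were.

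That even share was made of clusters with opposite orders. Cluster 11, led by Cd3g, Cd7, Trdc and Xcl1, genes of T cells that include the gamma-delta receptor chain, was cycling at 1.54% in IMQ+celastrol (1 of 65, 0.0389 to 8.28), 1.29% in IMQ (2 of 155, 0.157 to 4.58) and 14.2% in normal (47 of 332, 10.6 to 18.4). Top2a had 1 UMI in IMQ+celastrol, 3 in IMQ and 207 in normal, or 3.49, 5.34 and 165 CPM. Its cells were shallower in the treated libraries, with medians of 1964 UMIs in IMQ+celastrol, 2102 in IMQ and 2980 in normal, and 76, 110 and 44 cells were too shallow to be thinned. Summed CPM, which does not need thinning, also put normal far above both treated libraries, with 104.6 CPM of G2 and M phase genes in IMQ+celastrol, 126.5 in IMQ and 1760 in normal.

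Cluster 20, led by Il17a, Il17f and Il22, the cytokines that psoriatic T cells secrete, stood the other way. There 18.2% of cells were cycling in IMQ+celastrol (18 of 99, 11.1 to 27.2), 20.9% in IMQ (52 of 249, 16 to 26.5) and 2.6% in normal (2 of 77, 0.316 to 9.07), and without thinning 25.8% in IMQ+celastrol, 31.7% in IMQ and 3.77% in normal. The log2 ratio of the IMQ to the normal share was 3.01, and 0.69 at 4000 UMIs. Median depths were 3352 UMIs in IMQ+celastrol, 4933 in IMQ and 2337 in normal. Mki67 had 164 CPM in IMQ+celastrol, 129 in IMQ and 31.6 in normal, and Ube2c had 262, 321 and 23.7. The ratio of IMQ to normal was 4.07 for Mki67 (2.03 to 9.55) and 13.5 for Ube2c (6.17 to 37). Between IMQ+celastrol and IMQ 2 of the 40 genes were at least 1.5-fold higher and 5 lower, where 11.4% and 13.9% of all genes were. Cluster 19, led by Ccl5, Ifng and Gzmb, was cycling at 17.8% in IMQ+celastrol (13 of 73, 9.84 to 28.5), 14.3% in IMQ (29 of 203, 9.78 to 19.9) and 16.8% in normal (26 of 155, 11.3 to 23.6), so that its intervals overlapped throughout.

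Pericyte or smooth muscle-like cells, the mural cells of vessels, were cycling at 3.1% in IMQ+celastrol (17 of 548, 1.82 to 4.92), 1.39% in IMQ (8 of 577, 0.6 to 2.71) and in none of 167 normal cells, which allows up to 1.8%. The cycling cells of the treated libraries all lay in cluster 30, led by H2-M9 and the pericyte gene Rgs5, with 17 of 92 in IMQ+celastrol (18.5%, 11.1 to 27.9) and 8 of 97 in IMQ (8.25%, 3.63 to 15.6). Of the normal cells, 141 were in cluster 6, where no cell of any library was cycling. Cluster 30 held only 25 normal cells before thinning, so the normal value says little about that cluster. The ratio of these shares was 2.24 (0.916 to 6), an interval that takes in equal shares. The intervals of levels below count UMIs, many of which can come from these few cells, and so are too narrow for a difference between cells. In that cluster 28 of the 40 genes were at least 1.5-fold higher in IMQ+celastrol than in IMQ, and none was lower, where 8.47% of all genes were higher and 10.9% lower: all 23 G2 and M phase genes, with a median log2 ratio of 2.91, but 4 of 16 S phase genes. Ube2c had 199 CPM in IMQ+celastrol and 11.9 in IMQ (16.7-fold, 11 to 26.4), Top2a had 115 and 22.8 CPM (5.04-fold, 3.64 to 7.11), and Pcna had 50.4 and 75.5 CPM (0.667-fold, 0.507 to 0.874). The ratio of G2 and M phase to S phase UMIs in cluster 30 was 3.2 in IMQ+celastrol (2.96 to 3.45) and 0.515 in IMQ (0.459 to 0.577).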

How the data were processed

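Single-cell 3′ RNA sequencing of mouse dorsal skin gave 1 library per group. The authors deposited filtered matrices of whole-number UMI counts per gene and cell, which per the file headers came from Cell Ranger 4.0.0. The submitters' processing notes name the builds mm10 and GRCm38. Nothing was normalized before deposit. Here, barcodes with at least 300 genes and at most 20% mitochondrial UMIs were kept. Doublets were scored with Scrublet, whose own threshold called 89 IMQ+celastrol, 1 IMQ and 206 normal barcodes, under 0.5% in IMQ, so the highest scores were left out at 0.8% per 1000 cells: 330, 513 and 870 barcodes. Cells of the 3 libraries were scaled to 10000, log-transformed and clustered without integration (scanpy 1.11.5, 2000 variable genes, 30 components, 15 neighbours, Leiden resolution 1, leidenalg 0.10.2), with the cell cycle genes and histone genes left out. This gave 40 clusters, of which 8 stayed unnamed. Names came from marker lists, with thresholds from an earlier analysis of these data: a score of at least 0.25 that was 1.2 times the next list's, and at least 3 markers detected in 25% of cells. In addition, no other list could have more markers among the 10 leading genes of the cluster. A cluster of low depth also needed a marker of its list among them.

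Cells were thinned to 2000 UMIs for cycling shares. Levels are raw UMIs summed over a class, per 1000000, and genes with at least 20 UMIs over both libraries were compared. With 1 library per group no model could be fitted, and called means at least 1.5-fold. Intervals are exact 95% ones (Clopper-Pearson binomial, Poisson or conditional binomial, SciPy 1.17.1), and the upper limit behind a count of 0 is 3 counts. Those of levels and of the balance treat UMIs as independent, though many can come from the same few cells. The calculations were tested on simulated data. Genes given values were the 3 S phase and 5 G2 and M phase genes with most UMIs in a class, Stmn1, Mki67, Top2a, and the highest and lowest ratio; of the other lists, the 3 highest and 3 lowest ratios with at least 50 UMIs, D cyclins and Cdkn genes, from which the text takes examples. Genes named beyond these (Mcm2, Mcm5 and, outside basal cells, Rrm2 among them) were chosen after their values were seen. The 40 genes, the lists and the tests were chosen with earlier results of these data known. Alternatives were no thinning or 1000 or 4000 UMIs, stricter minimums, 2-fold in place of 1.5-fold, 10% mitochondrial UMIs, other doublet settings, clustering each library by itself or with the cell cycle genes, and naming by the highest score. After the data were seen, leaving out the hair matrix-like cells, cluster 5 or cluster 1 was added.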

Additional observations from a re-analysis of the deposited data

Results flagged for a closer look

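Hair matrix-like cells had the cycling share of 66.2% in the normal library, in a class that could not be compared because the other libraries held 1 such cell each. The log2 ratio of cycling shares between IMQ+celastrol and IMQ was −1.08 in basal keratinocyte-like cells and 1.45 in fibroblast-like cells, so that the classes stood on opposite sides of 0. Between IMQ and normal the log2 ratio was 1.96 in basal keratinocyte-like cells and −2.18 in fibroblast-like cells. Among T cell-like clusters, the log2 ratio of IMQ to normal was 3.01 in cluster 20, the Il17a cluster, and −3.46 in cluster 11, the Trdc and Xcl1 cluster. The differences between these classes and clusters were not tested, since each group was 1 library.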

How the results depend on the processing

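No paired analysis was possible because each group was 1 library, and no replicate could be left out. On the log2 scale, the cycling share of IMQ over normal in the epithelial compartment was −0.01, and 0.80 without thinning, −0.27 with stricter minimums and 1.05 without hair matrix-like cells; that of IMQ+celastrol over IMQ was −0.37, and −0.07 without thinning. In basal keratinocyte-like cells IMQ over normal was 1.96, and 1.54 with stricter minimums, 1.36 with doublets kept, 1.57 with Scrublet's own calls, 1.47 with each library clustered by itself and 1.15 when named by highest score; IMQ+celastrol over IMQ was −1.08, and −0.35 without thinning, −0.60 by highest score and −0.80 with the cell cycle genes in the clustering. In fibroblast-like cells IMQ over normal was −2.18, and −0.29 without thinning and −0.41 without cluster 5; IMQ+celastrol over IMQ was 1.45, and 0.50 without thinning and 0.09 without cluster 1. In T cell-like cells IMQ over normal was 0.04, and −1.14 at 4000 UMIs. The log2 ratio of G2 and M phase to S phase UMIs in basal keratinocyte-like cells, IMQ over normal, was −0.32, and −0.07 with doublets kept, −0.71 with Scrublet's calls, −0.73 by library, −0.01 by highest score, −0.72 at 10% mitochondrial UMIs and, with its sign turned, 0.06 with the cell cycle genes in; IMQ+celastrol over IMQ was −0.24, and −0.06 with doublets kept, −0.13 with Scrublet's calls, −0.15 by highest score, −0.16 at 10% mitochondrial UMIs and −0.03 with the cell cycle genes in. Of the 34 genes higher in IMQ than in normal basal cells, the count was 15 with doublets kept, 19 with Scrublet's calls, 22 by library, 12 by highest score and 21 at 10% mitochondrial UMIs. The count of 20 lower in IMQ+celastrol than in IMQ was 3 at 2-fold, 9 with doublets kept, 11 with Scrublet's calls, 12 by library, 3 by highest score, 10 at 10% mitochondrial UMIs and 5 with the cell cycle genes in. The count of 18 higher in IMQ+celastrol than in IMQ fibroblast-like cells was 7 at 2-fold and 28 with doublets kept. All other settings moved these values by less than their counting error or 1.5 times. The cause of these moves was not tested. Depth limits the shares of clusters with few thinned cells, whose intervals are wide.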

Other observations

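Vascular endothelial-like cells, a cluster led by Gpihbp1 and Plvap, were cycling at 18.8% in IMQ+celastrol (3 of 16, 4.05 to 45.6), 23.5% in IMQ (12 of 51, 12.8 to 37.5) and 1.53% in normal (2 of 131, 0.185 to 5.41), which is few cells in the treated libraries. Ube2c had 206 CPM in IMQ+celastrol, 139 in IMQ and 5.6 in normal, a ratio of IMQ to normal of 24.7 (9.44 to 92.2) that rests on 4 normal UMIs. Ratios of the compared G2 and M phase genes with normal UMIs ran from 3.34 for Cenpa (1.81 to 6.65) to 38.1 for Cenpf (6.53 to 1533), which had 1 normal UMI. Sebocyte-like cells were cycling at 27.8% in IMQ+celastrol, 34.6% in IMQ and 17.1% in normal, of 18, 26 and 199 cells. Langerhans-like cells were cycling at 6.25% in IMQ+celastrol (1 cell), 11.1% in IMQ (7 of 63) and 8.54% in normal (7 of 82). The ratio of IMQ to normal was 1.3 (0.39 to 4.35), so these counts give no order of the libraries.

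Cycling cells were compared with the other cells of their class, for genes that the rule for cycling did not use. Cycling basal keratinocyte-like cells were deeper, with medians of 36748 UMIs against 22799 in IMQ+celastrol, 50787 against 36540 in IMQ and 13006 against 8050 in normal. Cdkn2c, the p18 inhibitor of Cdk4 and Cdk6, was higher in cycling cells than in the others in the classes named here: 3.42-fold in IMQ+celastrol (2.9 to 4.03), 2.08-fold in IMQ (1.53 to 2.89) and 8.31-fold in normal (6.57 to 10.6) basal keratinocyte-like cells, and 3.48-, 3.27- and 5.07-fold in T cell-like cells. Btg1 was lower, at 0.587 times in IMQ+celastrol, 0.753 in IMQ and 0.562 in normal basal keratinocyte-like cells. In fibroblast-like cells Ccnd1 was 4.56-fold higher in the cycling cells of IMQ+celastrol (3.76 to 5.48), 1.41-fold in those of IMQ (0.722 to 2.49) and 1.75-fold in those of normal.

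Barcodes left out as doublets were cycling more often than kept ones: 16.8% in IMQ+celastrol, 14.8% in IMQ and 23.9% in normal.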
